A study of Mus musculus with 6 samples.

Results

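Homing and niche adhesion receptors were examined as a set of 8 genes, Cxcr4, Itga4, Itgb1, Itga6, Itgal, Cd44, Selplg and S1pr1, found by symbol among the 32285 genes counted in the study. Each symbol matched 1 gene. The study profiled host hematopoietic stem and progenitor cells (HSPCs) by droplet single-cell RNA sequencing, in mice that carried acute myeloid leukemia (AML) or did not. Hosts in both groups were female C57BL/6J mice of 8 to 12 weeks carrying the CD45.1 allele, not conditioned before injection. AML hosts received 1000000 C1498 cells, a murine AML line of the CD45.2 allele, control hosts received PBS, and marrow was taken at day 21. Lineage-depleted marrow of both groups was sorted for CD45.1+ Lin- cKit+ Sca1+ (LSK) cells, a gate that leaves out CD45.2 leukemia cells. Each group has 3 libraries, and the labels do not say whether 1 library stands for 1 animal, so p-values here measure only the spread between libraries.

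HSPCs leave the blood for the marrow in steps. Selectin ligands slow the cell on the vessel wall, chemokine signals switch integrins to their binding form, and integrins and CD44 then hold the cell to the vessel wall, matrix and stroma. CXCR4, which reads the stromal chemokine CXCL12, is known for keeping stem cells in the marrow, and S1PR1, which reads the lipid sphingosine 1-phosphate of blood and lymph, is known for guiding cells out.

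The genes are placed here as the GENCODE annotation of GRCm38 gives them. Cxcr4 lay on chromosome 1 from 128588199 to 128592293 on the minus strand, and S1pr1 on chromosome 3 from 115710433 to 115715072 on the minus strand. Of the integrin genes, Itga4 (chromosome 2, 79255426 to 79333123, plus strand) encodes the alpha 4 subunit, which with the beta 1 subunit from Itgb1 (chromosome 8, 128685654 to 128733200, plus strand) forms VLA-4, a receptor for VCAM-1 and fibronectin. Itga6 (chromosome 2, 71745616 to 71858416, plus strand) encodes the alpha 6 subunit of laminin receptors, and Itgal (chromosome 7, 127296260 to 127335138, plus strand) the alpha L subunit of LFA-1, which binds ICAM molecules. Cd44 (chromosome 2, 102811141 to 102901665, minus strand) encodes the hyaluronan receptor CD44. Selplg (chromosome 5, 113818536 to 113832644, minus strand) encodes PSGL-1, the main ligand of P-selectin on blood cells.

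RefSeq (GRCm38.p6) gave a promoter window for 4 of the 8 genes, Cxcr4, Itga4, Itgb1 and Cd44. The 250 bases before the start are printed for Cxcr4 and Cd44, because Cxcr4 was the gene called for a class-dependent treatment effect, a call lost in 4 of 8 alternatives, and Cd44 varied in level by class. Both are written 5′ to 3′ on the gene's own strand, with matches to the searched motifs in capitals. The Cxcr4 window is chr1:128592300-128592549 on the minus strand and the Cd44 window chr2:102901666-102901915 on the minus strand.
Cxcr4: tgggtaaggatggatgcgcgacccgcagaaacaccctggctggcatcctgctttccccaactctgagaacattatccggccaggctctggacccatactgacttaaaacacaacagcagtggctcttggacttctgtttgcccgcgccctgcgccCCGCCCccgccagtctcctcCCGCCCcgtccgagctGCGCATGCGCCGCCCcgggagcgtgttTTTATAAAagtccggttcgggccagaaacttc
Cd44: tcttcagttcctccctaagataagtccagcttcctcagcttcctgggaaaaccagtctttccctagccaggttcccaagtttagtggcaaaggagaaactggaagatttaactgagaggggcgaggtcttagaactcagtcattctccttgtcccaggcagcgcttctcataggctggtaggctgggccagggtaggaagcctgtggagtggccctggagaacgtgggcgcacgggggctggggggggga
Searched on both strands were the GC box (GGGCGG), an ETS core (CCGGAA), an NRF1 core (GCGCATG), a RUNX core (TGTGGT), the TATA box (TATAAA) and the CCAAT box (CCAAT). The Cxcr4 window held 3 GC boxes on the opposite strand, the first base of the nearest at position -50, which is also the last base of the second of 2 overlapping NRF1 cores, and 2 overlapping TATA boxes between -32 and -25. Of 32851 windows of this length, 32.7% held a GC box, 12.4% a TATA box and 3.24% an NRF1 core. None of the 6 motifs occurred in the Cd44 window. Itga4 and Itgb1 each held 1 GC box, and Itga4 also 1 RUNX core (in 14.05% of windows). These matches describe letters and are not evidence of binding.

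The deposited cell table kept 16822 cells of 5 libraries, from 693 in AML replicate 1 to 6838 in PBS replicate 1, with 1945659 to 32123508 unique molecular identifiers (UMIs) per library. AML replicate 2 had 17055 barcodes with a median of 320 UMIs and no cell in the table, so AML was represented by 2 libraries. AML replicate 1 stood apart: 14.7% of its cells were called G1 and 3.32% HSC, against 49.0% to 58.2% and 13.7% to 23.9% in the other libraries. Libraries shared cell barcodes: AML replicate 2 shared 1223 of the 1256 barcodes of PBS replicate 2, the highest share of the smaller library in any pair, and all 934 kept cells of PBS replicate 2 had a barcode that occurred in another library. Leaving out such barcodes therefore leaves 2 PBS and 2 AML libraries, and values under that rule are given where they matter. All 4 markers of the sort (Kit, Ly6a, Cd34, Ptprc) were detected, with summed levels of 464 to 663 CPM (UMIs of a gene per 1000000 UMIs) in PBS and 574 to 591 CPM in AML. Of the classes in the cell table, the HSC class was highest for 10 of 10 HSC markers in PBS libraries and MPP-3 for 8 of 8 of its own, while MPP-4 was highest for 6 of 8 and MPP-2 for 4 of 8. Levels below are CPM of a library's or class's summed UMIs after TMM scaling (an adjustment of library totals), except that levels of the marker lists and their genes are plain CPM. UMI counts were not scaled by length, so levels are compared within a gene and not between genes, and in such sums fewer expressing cells and less RNA per cell cannot be told apart.

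In all LSK cells, none of the 8 genes passed the test between AML and PBS libraries (edgeR quasi-likelihood F test, adjusted p under 0.05 over 14364 genes). The background was low too, with 23 genes called, or 0.16%. At an unadjusted p under 0.05 there were 3 of the 8, Itgal, S1pr1 and Cxcr4, against 10.5% of all genes. DESeq2 and limma-voom also called 0 of the 8. The 2 AML libraries lay wholly outside the PBS range for 3 genes, above it for Itgal and Cd44 and below it for S1pr1, while 32.0% of all genes tested had ranges that did not overlap. Over the 8 genes the median log2 fold change was 0.22, and over all genes -0.03. With shared barcodes left out, the log2 fold changes were 1.07 for Itgal, 1.12 for Cxcr4, 0.33 for Cd44 and -0.63 for S1pr1, each with an adjusted p of 0.941.

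**Figure D1:**
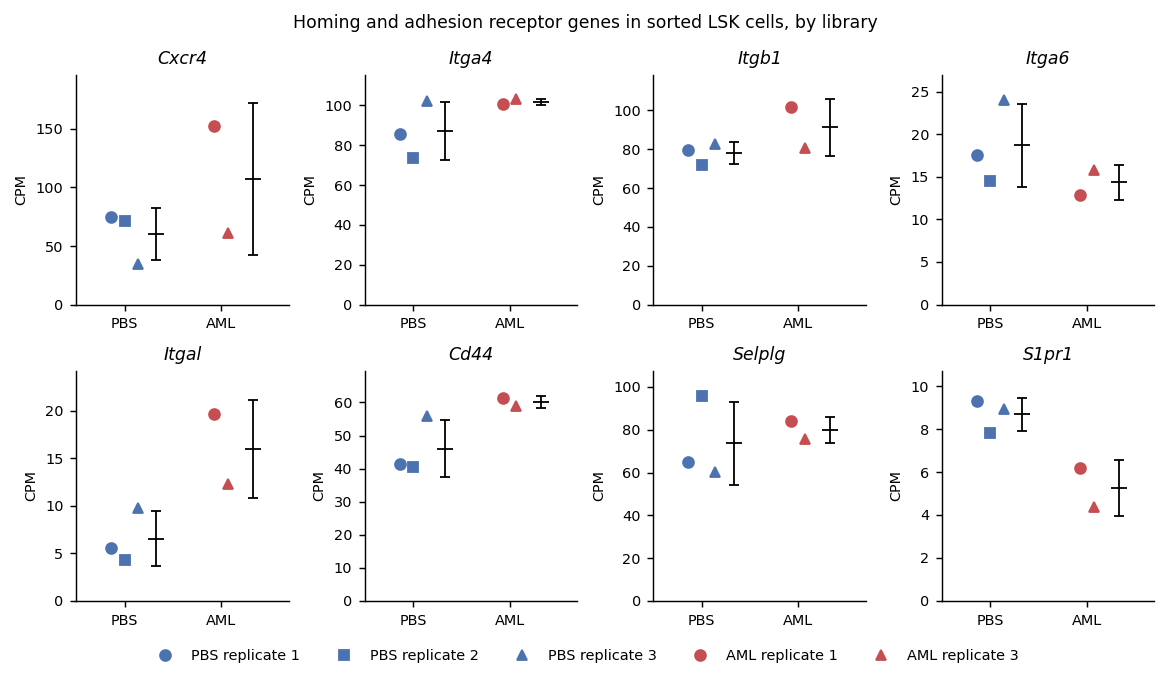
CPM of each gene in each library (y axis, linear from 0), PBS in blue and AML in red, with the mean and SD of each group as a black bar. Both AML libraries sit above every PBS library for Itgal and Cd44 and below every PBS library for S1pr1, and a single AML library sits high for Cxcr4.

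Cxcr4 was measured at 74.5, 71.3 and 34.3 CPM in PBS replicates 1, 2 and 3, and at 153 and 61.5 CPM in AML replicates 1 and 3. AML replicate 1 was the highest of the 5 libraries, PBS replicate 3 the lowest, and AML replicate 3 fell inside the PBS range. The log2 fold change was 0.80 ± 0.37 (SE; adjusted p = 0.473, unadjusted p = 0.0483). Without AML replicate 1 it was 0.05, and without AML replicate 3 it was 1.35 (adjusted p = 0.0562), so its size turned on 1 library. With equal class weights it was 0.22, and in G1 cells alone 0.64. For equal weights each class of a library was drawn down to the UMIs of its smallest class, 61292 in AML replicate 1. The MPP-3 class was 4.39% to 11.6% of cells in PBS and 32.9% and 22.3% in AML. The part of class shares in the Cxcr4 difference was not tested.

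S1pr1, the egress receptor, was measured at 9.31, 7.83 and 8.93 CPM in PBS and at 6.19 and 4.35 CPM in AML, with 80 to 321 UMIs per PBS library and 12 and 123 in AML. The AML values were lower than all 3 PBS values. On the log2 scale the difference was -0.86 ± 0.28 (SE; adjusted p = 0.314, unadjusted p = 0.00889). It was -0.87 among G1 cells, -0.72 with equal class weights and between -0.99 and -0.49 when single libraries were left out. The HSC markers moved with it: none of the 10 had a positive log2 fold change (median -0.61, 3 at an unadjusted p under 0.05, none called), their summed level was 633 to 686 CPM in PBS and 459 to 493 CPM in AML, and the HSC class was 20.5% to 23.9% of cells in PBS and 3.32% and 13.7% in AML. Their part in the S1pr1 difference was not tested.

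The VLA-4 subunits had overlapping values in the groups. Itga4 was measured at 85.8, 73.5 and 102 CPM in PBS and 101 and 103 CPM in AML (log2 fold change 0.22 ± 0.23 SE, adjusted p = 0.732). Itgb1 was measured at 79.9, 71.7 and 82.5 CPM in PBS and 102 and 80.9 CPM in AML (0.22 ± 0.22 SE, adjusted p = 0.735). The Itgb1 difference was -0.00 among G1 cells.

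The other integrin alpha subunits pointed in opposite directions. Itga6 was measured at 17.6, 14.5 and 24.0 CPM in PBS and 12.9 and 15.8 CPM in AML, with overlapping ranges (-0.34 ± 0.26 SE, adjusted p = 0.631). Itgal was measured at 5.57, 4.304 and 9.78 CPM in PBS and 19.6 and 12.3 CPM in AML, from 44 to 206 UMIs per PBS library and 38 and 349 in AML. Both AML values exceeded the highest PBS value, that of PBS replicate 3. The log2 fold change of Itgal was 1.17 ± 0.33 (SE; adjusted p = 0.237, unadjusted p = 0.00351), and it ranged from 0.91 without AML replicate 1 to its highest value without PBS replicate 3, where adjusted p was 0.0982. It was 0.90 among G1 cells, 0.74 with equal class weights and 0.70 in G1 cells without AML replicate 1. Without the filter on low counts, a fit of 21591 genes that called 392, Itgal passed (adjusted p = 0.00448).

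Because Itgal is also a gene of mature leukocytes, marker lists of other blood cells are given beside it. Summed T and NK cell markers, with all 8 genes detected, came to 159 to 183 CPM in PBS and 186 to 193 CPM in AML, of which Nkg7 alone was 145 to 172 CPM and 172 to 182 CPM. Of the 6 T and NK cell markers tested, 5 had a positive log2 fold change (median 0.41) and none was called. Klrb1c was 1.35 to 2.30 CPM in PBS and 2.57 and 6.88 CPM in AML. Cd3d, Cd3e, Cd3g, Trbc1 and Gzma were at 0 in AML replicate 1, and at 0 to 5.57 CPM in PBS. Monocyte and macrophage markers, with all 7 detected, came to 86.5 to 147 CPM in PBS and 83.8 to 109 CPM in AML, a sum in which Lyz2 made up 66.2 to 128 CPM in PBS and 42.1 to 57.3 CPM in AML. Of the 6 monocyte markers tested, 5 had a positive log2 fold change (median 1.59, against -0.03 over all genes), and 1, Ly6c2, passed the test (1.69 ± 0.27 SE, adjusted p = 0.0183). Neutrophil markers came to 2.21 to 18.1 CPM in PBS and 3.08 to 5.54 CPM in AML, and B cell markers to 904 to 1370 CPM and 700 to 847 CPM. Of the MPP-3 markers, Ctsg, a granule protease of myeloid progenitors, was higher in AML (1.54 ± 0.26 SE, adjusted p = 0.025), and the MPP-3 sum was 783 to 1338 CPM in PBS and 1827 to 1828 CPM in AML. The part of these cells in the Itgal difference was not tested.

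The hyaluronan receptor gene and the selectin ligand gene completed the set. Cd44 was measured at 41.5, 40.5 and 56.0 CPM in PBS and 61.4 and 58.8 CPM in AML (0.38 ± 0.23 SE, adjusted p = 0.553). The gap between the lower AML library and PBS replicate 3 was small beside the PBS spread. Selplg was measured at 65.1, 95.7 and 60.1 CPM in PBS and 84.1 and 75.7 CPM in AML, with both AML values inside the PBS range (0.11 ± 0.25 SE, adjusted p = 0.892). The Selplg difference changed sign under several settings.

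Within PBS libraries the 8 genes differed by class, and these levels are a description only, since the classes were scored on the same cells. S1pr1 was highest in the HSC class, with 20.2, 18.3 and 15.6 CPM in the PBS replicates, against 2.37 to 8.59 CPM in the other classes. AML replicate 3 also had its highest S1pr1 level there, and the HSC value of AML replicate 1 rests on 1 UMI. In PBS libraries the HSC class exceeded MPP-4 by 1.31 ± 0.23 on the log2(CPM + 1) scale (SD, 3 libraries).

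Itga6 too was highest in the HSC class of PBS libraries. Its HSC levels were 39.1, 22.1 and 44.1 CPM in PBS, against 4.74 to 22.6 CPM in the other classes, and HSC exceeded MPP-4 by 1.23 ± 0.54 (SD, 3 libraries). AML replicate 3 was alike, with 38.5 CPM in HSC and 11.4 to 16.3 CPM elsewhere. The 23 HSC-class cells of AML replicate 1 held 0 Itga6 UMIs among 61292, which allows up to 48.9 CPM, so nothing could be read from that library.

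Itgal, Selplg and Cd44 ran the other way. Itgal was lowest in the HSC class in 3 of 3 PBS libraries, at 1.92, 0 and 3.56 CPM, and in AML replicate 3, at 3.21 CPM, and in PBS reached 8.34, 6.63 and 15.1 CPM in MPP-4. The HSC class of PBS replicate 2 had 0 Itgal UMIs, which allows up to 1.71 CPM by counting error alone, and that of AML replicate 1 also had 0, which as for Itga6 allows no reading. Selplg was 41.5, 71.6 and 40.0 CPM in the HSC class and 79.3, 110 and 73.3 CPM in MPP-4, a log2 difference of -0.80 ± 0.16 (SD, 3 libraries), and it was lowest in HSC in 5 of 5 libraries, though AML replicate 1 rests on 5 UMIs. Cd44 was 31.9, 36.1 and 43.5 CPM in HSC and 55.4, 51.0 and 72.2 CPM in MPP-4, a difference of -0.66 ± 0.15 (SD, 3 libraries). Neighbouring classes in these orders mostly overlapped in PBS: the ranges were apart only between HSC and MPP-2 for S1pr1 and Itgal, and between MPP-4 and MPP-3 for Cd44.

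**Figure D2:**
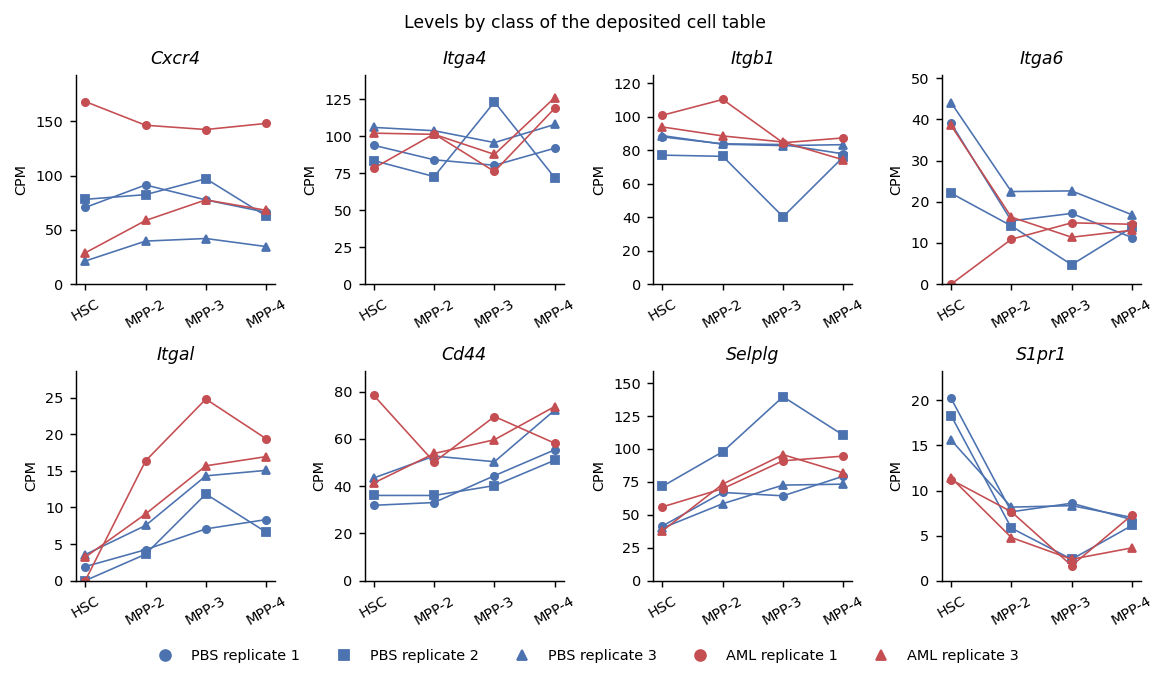
CPM of each gene (y axis, linear from 0) in the 4 classes of the cell table, with 1 line per library, PBS in blue and AML in red. In PBS libraries S1pr1 and Itga6 fall from HSC to the progenitor classes and Itgal and Selplg rise, and for Cxcr4 AML replicate 1 is on top and PBS replicate 3 at the bottom of every class.

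Itgb1 was highest in the HSC class in 3 of 3 PBS libraries, by small margins, and Itga4 and Cxcr4 had no steady class order. Itgb1 was 77.0 to 88.7 CPM in HSC and 76.0 to 83.3 CPM in MPP-4 of PBS libraries, a log2 difference of 0.09 ± 0.08 (SD, 3 libraries). Itga4 was 83.5 to 106 CPM in HSC and 71.9 to 108 CPM in MPP-4, a difference of 0.07 ± 0.13 (SD). Cxcr4 in the HSC class of PBS libraries was below MPP-2 in 3 of 3, by 0.44 ± 0.40 (SD), but in G1 cells alone the HSC class was above MPP-2 by 0.71. The Selplg difference between HSC and MPP-2, -0.55 in cells of every phase, was 0.13 in G1 cells, while that between HSC and MPP-4 kept its direction.

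Cell cycle phase, called on the same cells, went with some of the genes. S1pr1 was lowest in S-phase cells in 5 of 5 libraries: PBS replicates fell from 13.7, 10.8 and 12.2 CPM in G1 to 2.93, 2.78 and 4.23 CPM in S, and AML replicates from 6.28 and 6.92 CPM to 1.46 and 1.52 CPM. The mean S minus G1 difference was -1.62 ± 0.20 on the log2(CPM + 1) scale (SD, 5 libraries), though AML replicate 1 rests on 2 and 1 UMIs. G2M cells lay between, except in AML replicate 1.

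Cxcr4 and Selplg were lowest in G1 in 5 of 5 libraries. Cxcr4 in PBS was 58.0, 57.3 and 21.7 CPM in G1 and 97.6, 87.5 and 48.9 CPM in G2M, and in AML it was 129 and 46.0 CPM in G1 and 146 and 76.3 CPM in G2M. The G2M minus G1 difference was 0.68 ± 0.34 for Cxcr4 and 0.31 ± 0.20 for Selplg (log2, SD, 5 libraries). Itgb1 changed little with phase, with an S minus G1 difference of 0.05 ± 0.12 (SD). AML replicate 1, with the low G1 share, had the highest Cxcr4 of the 5 libraries within G1 too, from 41 UMIs, and the part of phase in its Cxcr4 level was not tested.

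**Figure D3:**
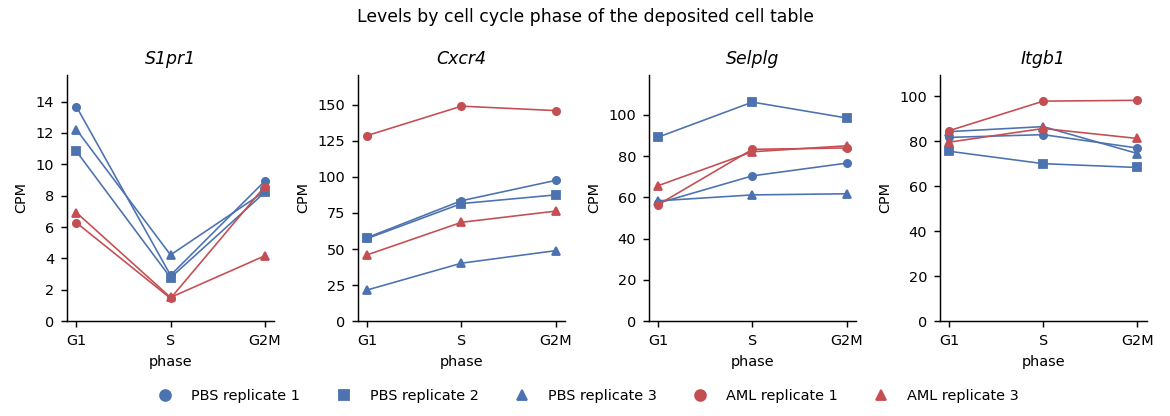
CPM of S1pr1, Cxcr4, Selplg and Itgb1 (y axis, linear from 0) in G1, S and G2M cells, with 1 line per library, PBS in blue and AML in red. S1pr1 dips in S in all 5 libraries, whereas Cxcr4 and Selplg start lowest in G1.

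Whether the AML difference was specific to a class was asked in a fit of class by treatment with a term per library. Cxcr4 was the 1 gene of the 8 called (adjusted p = 0.0343), where 111 of 12734 genes, or 0.872%, were called. Relative to HSC, its AML effect was larger by 1.08 on the log2 scale in MPP-4, by 0.89 in MPP-3 and by 0.52 in MPP-2. In the HSC class Cxcr4 was 70.6, 78.1 and 21.3 CPM in PBS and 168 and 28.9 CPM in AML, and in MPP-4 it was 66.2, 62.7 and 34.6 CPM in PBS and 148 and 68.0 CPM in AML. AML replicate 1 was high in every class, while AML replicate 3 sat in the lower part of the PBS range in HSC and above that range in MPP-4. The adjusted p was 0.0315 without AML replicate 1 and 0.88 without AML replicate 3, where the MPP-4 term was -0.14. Either fit leaves 1 AML library, which is assumed to vary as the PBS libraries do, so neither is a check over AML replicates. The call was also lost without PBS replicate 1 (adjusted p = 0.628), with plain library sizes (adjusted p = 0.142) and in limma-voom, where library was a random effect (adjusted p = 1, with 1 gene called in all). The other 7 genes had adjusted p of 0.339 to 0.989.

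Class by class, none of the 8 was called. The background of called genes was 0.178% for HSC, 0.0399% for MPP-2, 0.0486% for MPP-3 and 0.0325% for MPP-4. The Cxcr4 log2 fold change was -0.32 ± 0.32 in HSC and 0.87 ± 0.30 in MPP-4 (SE; adjusted p = 0.992 and 0.631), with 0.53 ± 0.38 for MPP-2 and 0.61 ± 0.37 for MPP-3 between them (adjusted p = 0.724 and 0.787). The MPP-2 and MPP-3 values each changed sign in 1 alternative, to -0.25 and -0.12. The fitted HSC value was negative although the mean level was 56.7 CPM in PBS and 98.5 CPM in AML. The negative value went with AML replicate 3 (28.9 CPM from 81 UMIs), while AML replicate 1 was at 168 CPM from 15 UMIs. In DESeq2 the HSC value turned to 0.76. In MPP-4 both AML libraries lay above the PBS range, as they did for 11.9% of genes tested there. A fit with the replicate block, which pairs equal replicate numbers, called Cxcr4 (adjusted p = 0.0309). That fit called 34 of 12305 genes, against 4 without the block.

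In each progenitor class both AML libraries were above the PBS range for Itgal, as for 12.0%, 13.7% and 11.9% of genes tested there. In MPP-2 it was 4.22, 3.61 and 7.54 CPM in PBS and 16.4 and 9.11 CPM in AML, with a log2 fold change of 1.13 ± 0.39 (SE, adjusted p = 0.483). In that class 6 of 6 MPP-3 markers tested had a positive fold change (median 1.01, 1 called higher). Their sum was 707 to 1109 CPM in PBS and 1409 and 1249 CPM in AML. Of the monocyte markers 4 of 5 were positive (1.56), but their sum was 74.3 to 124 CPM in PBS and 54.5 and 75.1 CPM in AML. Erythroid markers were positive for 5 of 5 (2.84). The erythroid sum was 51.9 to 61.7 CPM in PBS, 21.8 CPM in AML replicate 1 and 403 CPM in AML replicate 3. The part of these markers in the Itgal value was not tested. The Itgal fold changes were 0.80 ± 0.41 in MPP-3 and 0.80 ± 0.33 in MPP-4 (SE, adjusted p = 0.712 and 0.76). Positive in MPP-4 were 4 of 6 MPP-3 markers (median 0.61), 2 of 8 HSC markers (-0.39) and 0 of 3 erythroid markers (-1.80). None of these was called, and their part in the values of MPP-4 was not tested. In the HSC class Itgal was below the filter on low counts and was not tested.

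S1pr1 was 20.2, 18.3 and 15.6 CPM in PBS against 11.2 and 11.4 CPM in AML within the HSC class, the latter from 1 and 32 UMIs. Both AML values lay below the PBS range, as for 17.9% of genes tested, and the log2 fold change was -0.65 ± 0.39 (SE, adjusted p = 0.992). All 4 erythroid markers tested in the HSC class, globin genes with near-identical copies among them, were called lower in AML there (median -5.63). Their summed levels were 175 to 2060 CPM in PBS and 48.9 and 78.6 CPM in AML. Of the HSC markers 7 of 10 had a positive fold change in that class (median 0.05). The HSC marker sum there was 1313 to 1405 CPM in PBS and 2121 and 1597 CPM in AML. The part of either list in the S1pr1 value was not tested. In MPP-3, where PBS replicate 2 and AML replicate 1 each had 1 S1pr1 UMI and the ranges overlapped, it was -1.76 ± 0.59 (adjusted p = 0.381). None of the marker genes tested in MPP-3 had a positive fold change among 5 of basophils and mast cells (median -2.18), 5 of B cells (-1.81), 4 of erythroid cells (-2.27) and 6 of HSCs (-0.76), 1 neutrophil marker was called lower, and their part in the S1pr1 value was not tested. In MPP-2 and MPP-4 S1pr1 was at -0.40 ± 0.36 and -0.72 ± 0.41 (adjusted p = 0.763 and 0.883). Each turned positive in 1 alternative (0.16 and 0.18). Itga4 in MPP-4 was 91.8, 71.9 and 108 CPM in PBS and 119 and 126 CPM in AML, and both AML values were above the PBS range (0.47 ± 0.24 SE, adjusted p = 0.863).

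**Figure D4:**
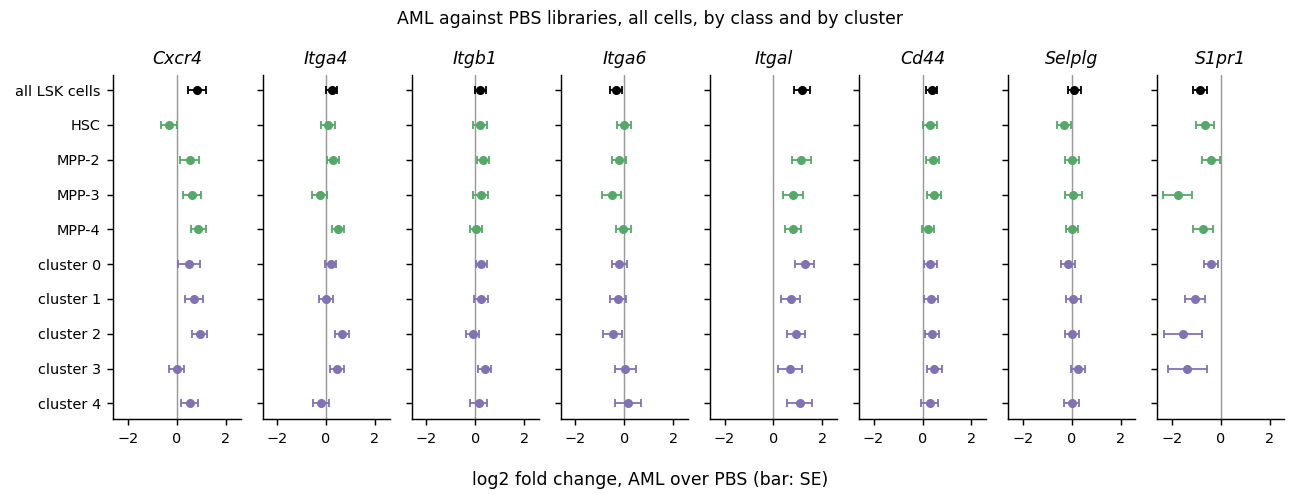
Log2 fold change of AML over PBS (x axis) with its SE as a bar, for each gene (panels) in all LSK cells, the 4 classes and clusters 0 to 4 (y axis). Itgal lies right of 0 and S1pr1 left of 0 in each comparison in which it was tested (in cluster 3 against its mean CPM), Itgb1 lies between -0.10 and 0.38 and Selplg between -0.31 and 0.27, and Cxcr4 is at -0.32 in the HSC class and 0.87 in MPP-4.

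By cluster of the cell table, clusters 0 to 4 had enough cells in both groups for a test, and none of the 8 genes was called in any of the 5. The background there was 0.0407%, 0.155%, 0.199%, 0.156% and 0.522% of genes in clusters 0 to 4. Itgal fold changes were positive in all 5, from 0.66 in cluster 3 to 1.27 in cluster 0, and S1pr1 fold changes were negative in the 4 clusters where it was tested, from -1.54 in cluster 2 to -0.41 in cluster 0. In cluster 3 the fitted S1pr1 value of -1.37 ran against the mean levels, which were 4.39 CPM in PBS and 5.98 CPM in AML, with overlapping ranges. In cluster 2 AML replicate 1 held 0 S1pr1 UMIs among 302278, which allows up to 9.92 CPM, and AML replicate 3 held 6, so the value there rests on AML replicate 3. Since cells of a library enter several clusters, these are not separate replicates. Cxcr4 in cluster 2 had 0.93 ± 0.30 (SE, adjusted p = 0.364), and without AML replicate 3 it had an adjusted p of 0.0203, from AML replicate 1 alone (109 cells) with the spread taken from the PBS libraries.

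Cluster levels added detail to the classes, again as a description. S1pr1 was highest in cluster 5, at a median of 17.9 CPM over the 4 libraries with 20 or more cells, and in cluster 0, at 12.3 CPM (27 and 421 UMIs), and these 2 clusters were also highest for Itga6 (24.2 and 23.9 CPM). Cxcr4 peaked in cluster 4 at 108 CPM, the cluster with the highest summed MPP-3 markers (5919 CPM), where Selplg was at 110 CPM. Selplg and Itga4 were highest in cluster 8, at 132 and 152 CPM, a cluster of 113 cells with the highest T and NK cell markers (1941 CPM). Cluster 6, with 177 cells and 44290 CPM of B cell markers, had the highest Itgal and Cd44 (27.1 and 81.1 CPM, from 15 and 49 UMIs) after TMM scaling and the lowest Itgb1 (40.6 CPM), and 172 of its cells belonged to the MPP-3 class. With plain library totals and all libraries pooled, cluster 6 was not the highest for either gene: Itgal was 8.09 CPM there and 23.6 CPM in cluster 8, and Cd44 was 26.4 CPM there, the second lowest of the 9 clusters, and 64.5 CPM in cluster 2. Leaving out clusters 6, 7 and 8 gave fold changes in all LSK cells of 1.19 for Itgal and 0.38 for Cd44.

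**Figure D5:**
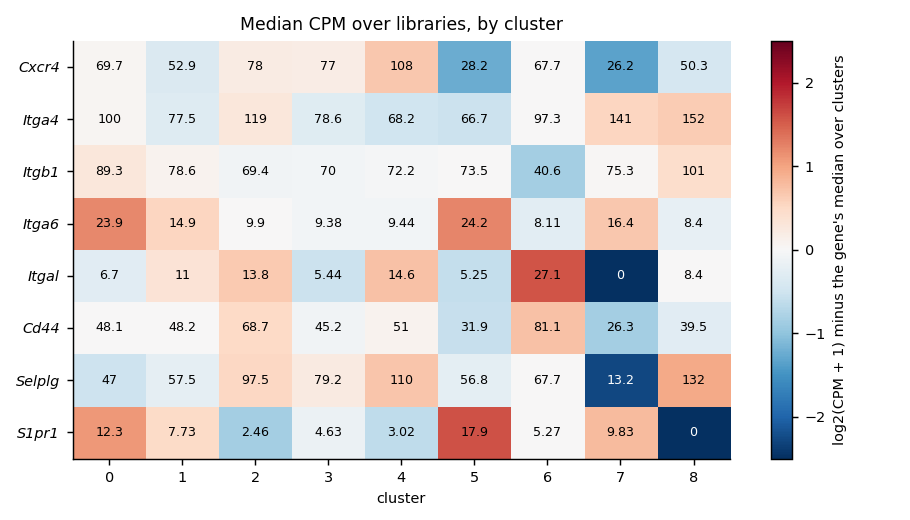
Median CPM over the libraries with at least 20 cells (printed number) for each gene and cluster, colored by its log2(CPM + 1) relative to the gene's median over clusters. S1pr1 and Itga6 are high in clusters 0 and 5, Cxcr4 in cluster 4, Itgal and Cd44 in cluster 6 (after TMM scaling, but not with plain library totals), and clusters 5 to 8 rest on 102 to 339 cells.

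The patterns of the 8 genes over the 20 sums of 1 library and 1 class were compared with 4352 other genes by Pearson r of log2(CPM + 1). These sums share libraries and depth, so r is a description. One of them, the HSC class of AML replicate 1, held 0 Itga6 and Itgal UMIs and 1 S1pr1 UMI. Nearest to Cxcr4 were Sephs2 (0.90) and Gars (0.87), to S1pr1 Samd12 (0.92) and Nfia (0.91), and to Itga6 Hsd17b10 (0.93) and Atxn7 (0.91). Without that sum the Itga6 values were 0.77 and 0.71, so their height rests partly on it, while those of S1pr1 were 0.92 and 0.92. Itgal was nearest to Rasgrp2 (0.91), which activates the integrin switch Rap1, and Sgk3 (0.90), or 0.95 and 0.86 without that sum. Selplg was nearest to Parvg (0.90), an adaptor at integrin adhesions, and Eif4a1 (0.87). Itga4 was nearest to Pot1b (0.82) and Ssh2 (0.68), Itgb1 to Wac (0.89) and Arid1b (0.88), and Cd44 to Map3k1 (0.82) and L3mbtl3 (0.81). Among the 8 themselves, S1pr1 ran against Selplg (-0.75) and Itgal (-0.72), and the VLA-4 partners Itga4 and Itgb1 did not run together (-0.25). Without the sum of the HSC class of AML replicate 1 these were -0.74, -0.74 and -0.20, and pairs with Itga6 or Itgal moved more: Itga6 with Selplg went from -0.38 to -0.90, Itga6 with S1pr1 from 0.30 to 0.75 and Itgal with Cd44 from 0.41 to 0.79.

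Genes that work with these receptors were followed in 8 lists, in all LSK cells, and none of the listed genes passed the test. Of the other integrin subunits 13 of 14 were tested, with a median log2 fold change of 0.08. The 3 with the lowest p were Itga2 (-0.75 ± 0.34), Itgax (1.21 ± 0.56) and Itgb3 (0.63 ± 0.39, all SE). Of other chemokine and sphingosine phosphate receptors 12 of 14 were tested, with a median of 0.73, and those of lowest p were the inflammatory monocyte receptors Ccr2 and Cx3cr1 and the lipid receptor S1pr3. Ccr2 was 0.783 to 2.75 CPM in PBS and 7.89 to 9.81 CPM in AML (2.01 ± 0.39 SE, adjusted p = 0.0701), Cx3cr1 was 0.522 to 1.08 CPM in PBS and 2.05 to 2.06 CPM in AML, and S1pr3 differed by 1.28 ± 0.44.

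Other adhesion and selectin molecules had a median of -0.22 over 25 of 28 genes tested. Pecam1, an endothelial and leukocyte adhesion molecule, was 35.0 to 44.6 CPM in PBS and 59.6 to 105 CPM in AML (1.03 ± 0.26 SE, adjusted p = 0.172). Esam, a surface adhesion molecule of stem cells, was 8.64 to 18.7 CPM in PBS and 5.16 to 5.48 CPM in AML (-1.30 ± 0.33 SE, adjusted p = 0.188). The AML libraries lay outside the PBS range for both.

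Among niche ligands, mostly products of stroma and vessels, 6 of 15 were tested, with a median of -0.21, and those of lowest p were Selp (0.62 ± 0.27), Icam4 (-0.55 ± 0.25) and Spp1 (-0.75 ± 0.40, all SE). The enzymes that build selectin ligands, 11 of 11 tested, had a median of 0.02, with B4galt1 (0.64 ± 0.24), Tpst1 (0.54 ± 0.26) and Tpst2 (-0.50 ± 0.26) of lowest p. Integrin activators and adaptors, 21 of 22 tested, had a median of -0.07, with Ilk (-0.59 ± 0.25), Rasgrp2 (0.47 ± 0.25) and Zyx (-0.44 ± 0.25) of lowest p.

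Genes of migration signalling, 22 of 22 tested, had a median of -0.05. The regulators of G protein signalling Rgs1 and Rgs18, which dampen chemokine receptors, had the lowest p: Rgs1 was 71.2 to 113 CPM in PBS and 40.3 to 52.4 CPM in AML (-1.02 ± 0.26 SE, adjusted p = 0.188), Rgs18 differed by -0.81 ± 0.27, and Rhoh by -0.40 ± 0.22. Genes that set receptor levels, 17 of 19 tested, had a median of 0.16, with the sphingosine phosphate lyase Sgpl1 (0.54 ± 0.23), the ubiquitin ligase Nedd4l (0.47 ± 0.23) and the kinase Sphk1 (-1.20 ± 0.68) of lowest p. Over all 8 lists the adjusted p of these named genes ran from 0.0701 to 0.569.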

How the data were processed

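UMI counts per gene and barcode were deposited by the authors as 1 matrix per library, made with Cell Ranger 7.0.1 on GRCm38 (mm10) as the submitters' processing notes name them, with Seurat 4.3.0 and R 4.2.2. A deposited cell table gave class, cluster and phase of each kept cell, and its 19 other columns of values were not used. The sources used here do not say how doublets were treated, and no caller was run.

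Counts of kept cells were summed per library, and per class, cluster or phase with at least 20 cells (edgeR 4.0.16 in R 4.3.3, filterByExpr, TMM, quasi-likelihood F test, Benjamini-Hochberg adjustment over all genes tested, threshold 0.05). DESeq2 1.42.0, limma 3.58.1, no filter, plain library sizes, a replicate block, each library left out, 2000 UMIs per cell, G1 cells, equal class weights, barcode filters (1000 genes, 10% mitochondrial), the 5% of cells with most UMIs left out and clusters 6 to 8 left out were alternatives. The fit was tested on simulated data. Where leaving out a library left 1 in AML, it was assumed to vary as the PBS libraries did. Intervals from a count of 0 (3 counts) cover counting error only.

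The 8 genes and the lists of related and marker genes were chosen with earlier results of these data known. Named from each list of related genes were all genes past the threshold and the 3 of lowest p (1 of these genes is not reported here), from the marker lists the genes past the threshold in all LSK cells (calls within classes are given as counts), and for likeness the 2 genes of highest r with a mean of at least 30 CPM. Markers of erythroid cells summed to 85.2 to 414 CPM in PBS and 26.2 to 190 CPM in AML, of basophils and mast cells to 19.7 to 60.4 and 16.4 to 38.8 CPM, and of stroma and endothelium to 77.0 to 82.6 and 96.1 to 128 CPM, with Col3a1 at 0. In the stroma and endothelium sum, Pecam1 was 34.4 to 41.7 CPM in PBS and 61.0 to 105 CPM in AML. Emcn went the other way, at 21.0 to 34.9 and 7.71 to 13.8 CPM. The HSC, MPP-2 and MPP-4 lists summed to 633 to 686, 235 to 330 and 2095 to 2940 CPM in PBS and to 459 to 493, 245 to 345 and 2417 to 2682 CPM in AML.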

Additional observations from a re-analysis of the deposited data

Results flagged for a closer look

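The AML effect on Cxcr4 differed between the 4 classes by the class-by-treatment test, with an adjusted p of 0.0343 from edgeR. It was larger in MPP-4 than in HSC by 1.08 on the log2 scale, and it was lost without AML replicate 3, without PBS replicate 1, with plain library sizes and in limma-voom. That fit has a term per library, so it sets classes against each other within libraries. Cxcr4 was 28.9 CPM in HSC and 68.0 CPM in MPP-4 of AML replicate 3, and 168 and 148 CPM in AML replicate 1. The MPP-4 term was 1.24 without AML replicate 1 and -0.14 without AML replicate 3. A separate fit of the HSC class gave -0.32, against mean HSC levels of 56.7 CPM in PBS and 98.5 CPM in AML, and DESeq2 put that effect at 0.76. The HSC class of AML replicate 1 held 23 cells.

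AML replicate 2 entered no comparison with cells of the table. Its 10155 barcodes found in no other library, with 4508500 UMIs, had levels above those of every PBS library counted the same way for 7 of the 8 genes, S1pr1 (7.10 CPM) being the exception, and so did 45.7% of 14364 genes. These were 55.7 CPM for Itgal (6.44 and 9.69 CPM in PBS replicates 1 and 3), 133 CPM for Cd44 (44.5 and 59.5 CPM), 182 CPM for Itga4 (94.4 and 108 CPM), 164 CPM for Selplg (72.3 and 60.2 CPM), 36.4 CPM for Itga6 (20.3 and 28.4 CPM), 101 CPM for Itgb1 (89.3 and 88.6 CPM) and 87.4 CPM for Cxcr4 (76.4 and 23.8 CPM). PBS replicate 2 had only 33 such barcodes with 37211 UMIs. With all barcodes Cxcr4 was 69.0 CPM in AML replicate 2, inside the PBS range. A filter of at least 1000 genes and at most 10% mitochondrial UMIs left 106 barcodes of AML replicate 2, of which 75 were shared with another library. There Itgb1 was 58.8 CPM from 18 UMIs, below every PBS library (72.3 to 86.1 CPM), and S1pr1 had 0 UMIs among 306059, too few to read. The other 6 genes were above every PBS library, Cxcr4 at 127 CPM from 39 UMIs and Itgal at 13.1 CPM from 4. The share of all genes above under this filter was not computed, so that count has no background to be set against.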

How the results depend on the processing

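In all LSK cells 0 of the 8 genes was called in 18 of 19 alternatives, and 1 (Itgal) without the filter. Itgal, Cd44, Cxcr4, Itga4, Itga6 and S1pr1 kept their direction in all 19. Itgb1 turned to -0.00064 in G1 cells and -0.020 in G1 cells without AML replicate 1, an alternative chosen after seeing the data, as was the own filter on the barcodes of 5 libraries. Selplg turned to -0.012 with thinned cells, -0.12 in G1 cells, -0.047 in G1 cells without AML replicate 1 and -0.019 with shared barcodes left out. The cause was not tested.

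Replicate numbers 1 and 3 are shared by both groups, and deviations from the group means correlated at -0.09 and -0.13. With 2 AML libraries the deviations of one mirror those of the other, so these values cannot show whether equal numbers stand for a pairing. The labels give only the number. The replicate block called 0 of the 8 genes in all LSK cells, 1 (Cxcr4) in MPP-4 and 0 in the other classes and in the clusters, and it put Cxcr4 at 0.79 in HSC, where DESeq2 gave 0.76.

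With single libraries left out, Cxcr4 ranged from -0.93 to 1.60 in HSC and from -0.25 to 1.14 in MPP-2, and it was -0.12 in G1 cells of MPP-3. S1pr1 ranged from -0.59 to 0.16 in MPP-2, from -0.86 to 0.18 in MPP-4 and from -2.02 to 1.33 in cluster 3. Over their alternatives Cxcr4 ranged from 0.34 to 1.496 in MPP-4 and from 0.33 to 1.54 in cluster 2, Itgal from 0.12 to 0.91 in cluster 3 and from 0.42 to 1.99 in the other classes and clusters tested, and S1pr1 from -1.94 to -0.96 in cluster 1 (in cluster 2 the fit without AML replicate 3 sets PBS against a library at 0, and its value is no bound). Calls over the clusters ranged from 0 to 1. In the class-by-treatment test calls ranged from 0 to 1 and the MPP-4 term from -0.14 to 1.24, and there were 0 calls in limma-voom and 0 with plain library sizes.

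Over all genes the count of calls moved by more than 1.5 times in 10 of 19 alternatives for all LSK cells (23 as reported, 0 with shared barcodes left out, 419 without AML replicate 3). It ranged from 0 to 29 in HSC (19 as reported), 0 to 156 in MPP-2 (5), 2 to 166 in MPP-3 (5), 0 to 75 in MPP-4 (4), 0 to 142, 4 to 496, 1 to 109, 2 to 30 and 7 to 101 in clusters 0 to 4 (5, 18, 23, 16 and 45) and 1 to 508 in the class-by-treatment test (111). The HSC against MPP-4 direction was the same in every PBS library for 6 of 8 genes, and for 6 to 8 under the alternatives. Few UMIs limit S1pr1, Itga6 and Itgal in AML replicate 1 (12, 25 and 38).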
